A study of Homo sapiens with 3 samples.

Results

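The genes described here are 31 genes that FoxO transcription factors are known to activate, chosen by name from knowledge of the family. They are grouped by role into cell cycle arrest, cell death, stress defence, insulin feedback, autophagy and protein breakdown, and transcription regulators. Members and roles were chosen with earlier results of these data known, so the list is not independent of the data. Of the 31, 30 were matched to an Ensembl gene ID among the 48162 in each file, and 29 reached a mean of 1 FPKM (sequenced fragments per kilobase of transcript and library depth) over the 3 libraries, as did 12649 named genes in all. TXNIP is not analysed here, and PIK3IP1 lay under the minimum. The cells were MDA-MB-231, an established line from human breast cancer of the triple-negative kind, with 1 library in each of 3 groups: a control, a FoxO3 depletion, and a Geminin/FoxO3 co-depletion. According to the protocols, which are the same for every library, the cells grew in 10% serum, were exposed to lentivirus for 24 h and were harvested 72 h after the medium change. What sequences depleted the genes and which vector the control carried is not stated in the labels, nor whether the cells were single clones or mixed populations.

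FoxO proteins are forkhead transcription factors at the end of the insulin and growth factor pathway. When PI3K is active, AKT and SGK kinases phosphorylate them, 14-3-3 proteins hold them in the cytoplasm, and their targets lose activation. When growth factors are scarce they enter the nucleus and activate genes that stop the cell cycle, promote apoptosis, detoxify peroxide, feed autophagy and raise insulin receptor signalling in a feedback loop. FOXO3 is the family member most often studied in breast cancer, where its cytoplasmic retention has been linked to AKT activity. Geminin, the product of GMNN, binds the replication licensing factor CDT1 and keeps replicated DNA from being licensed again.

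FoxO proteins bind DNA through a forkhead core, written here as GTAAACA, and through the longer insulin response element CAAAACAA. Both were searched on both strands in RefSeq promoters of GRCh38.p14, each a window of 300 bases from 250 before to 50 after an annotated start. Of the 31 genes, 27 had a promoter in the table. GADD45A, ERBB3, PINK1 and FBXO32 had none. GTAAACA lay in a promoter of 5 of these 27 genes (18.5%), against 1145 of 27305 genes in the table (4.19%). Counted by window, it was in 5 of 38 (13.2%) against 1202 of 35116 (3.42%). Of the 25 genes that were both analysed and in the table it lay in 3 (12.0%), as TXNIP and PIK3IP1 were not analysed. The genes were listed as FoxO targets, so a higher share is not independent evidence. CAAAACAA lay in 1 of the 27 genes (3.70%), against 569 of 27305 (2.08%). The 2 motifs do not overlap in any window shown. A match is a description of letters and not a binding site. The stretches around each match are shown because they are the places where these promoters match either motif. The match is in capitals, 5′ to 3′ along the gene's strand. Where the motif lies on the other strand, the capitals read TGTTTAC or TTGTTTTG.
TXNIP, 124 bases before the start, chr1:145996686-145996714, minus strand: tcgggctcctgGTAAACAaggaccgggca
BCL2L11, 223 bases before the start, chr2:111120680-111120708, plus strand: gagttactccgGTAAACAcgccagggacg
BTG1, 209 bases before the start, chr12:92146038-92146066, minus strand: ccgggtttattTGTTTACaagcggattac
YPEL3, at the first transcribed base, chr16:30096196-30096224, minus strand: ctgggctcggtGTAAACAagtccaggcgc
PIK3IP1, from transcribed base 17, chr22:31292455-31292483, minus strand: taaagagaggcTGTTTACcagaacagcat
IRS2, 41 bases before the start, chr13:109786606-109786635, minus strand: cgagtcacatgTTGTTTTGctcttcttagt

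The promoters of the 3 genes that were lower in both depleted libraries, YPEL3, SESN3 and RBL2, are shown at greater length. That of YPEL3 has a GC content of 78.2% and ends with the forkhead core in capitals. That of SESN3 has a GC content of 42.8% and the 2 RBL2 promoters have 55.2% each. None of these 3 windows holds GTAAACA or its reverse complement TGTTTAC. Absence of these letters says nothing about sites elsewhere.
YPEL3, chr16:30096207-30096463, minus strand: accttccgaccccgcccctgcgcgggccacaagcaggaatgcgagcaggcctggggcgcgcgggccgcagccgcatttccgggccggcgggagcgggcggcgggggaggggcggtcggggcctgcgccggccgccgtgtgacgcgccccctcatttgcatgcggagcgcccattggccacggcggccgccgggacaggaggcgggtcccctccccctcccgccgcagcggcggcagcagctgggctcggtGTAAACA
SESN3, chr11:95232476-95232725, minus strand: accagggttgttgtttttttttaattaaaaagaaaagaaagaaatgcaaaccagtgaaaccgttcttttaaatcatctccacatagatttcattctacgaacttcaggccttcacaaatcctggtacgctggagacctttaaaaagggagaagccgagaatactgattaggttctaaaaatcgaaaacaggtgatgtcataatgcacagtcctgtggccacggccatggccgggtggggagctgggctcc
RBL2, upstream start, chr16:53434221-53434470, plus strand: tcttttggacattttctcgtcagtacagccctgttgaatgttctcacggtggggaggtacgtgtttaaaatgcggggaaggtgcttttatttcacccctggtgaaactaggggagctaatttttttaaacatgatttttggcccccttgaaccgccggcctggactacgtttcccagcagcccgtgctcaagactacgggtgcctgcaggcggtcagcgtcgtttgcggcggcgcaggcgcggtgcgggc
RBL2, downstream start, chr16:53435369-53435618, plus strand: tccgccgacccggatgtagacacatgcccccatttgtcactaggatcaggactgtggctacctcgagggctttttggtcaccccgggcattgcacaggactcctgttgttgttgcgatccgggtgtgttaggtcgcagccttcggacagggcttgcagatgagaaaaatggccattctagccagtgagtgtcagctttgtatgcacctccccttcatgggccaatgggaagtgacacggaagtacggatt

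Both targeted transcripts were reduced as the labels say. FOXO3 stood at 12.2 FPKM in the control, against 2.79 with FoxO3 depleted and 2.94 with both depleted. GMNN stood at 112.3, 112.2 and 37.0 FPKM in the same order. The pseudogene FOXO3B, which shares sequence with FOXO3, was listed at 0.61, 0.10 and 0.13 FPKM. The values rest on inferred totals of 10760613 to 14507410 reads, deepest in the control. All 6 markers fixed for MDA-MB-231 were present. Of 8 listed as low or absent in the line, 5 had a mean under 1 FPKM, ESR1 and PGR among them, while ERBB2 was at 38.0, 41.6 and 46.8 FPKM, EPCAM at 13.7, 9.80 and 8.95, and GATA3 at 8.78, 12.1 and 12.6. The 5 fibroblast markers summed to 10.8, 14.4 and 14.0 FPKM in the control, the FoxO3 depletion and the co-depletion, with 1 of them, COL1A2, at a mean of 1 FPKM or more. Of 5 leukocyte markers 2 reached that mean, CD14 at 6.76, 8.09 and 8.59 FPKM and CSF1R at 3.75, 1.48 and 1.62. In the endothelial and HEK293 lists 0 did. What part the cells of these lists have in the results was not tested. Since each group is a single library, differences have no replicate behind them and no test was made. Intervals are exact 95% Clopper-Pearson intervals on recovered reads, which cover counting error only and compare libraries, not conditions. In bulk RNA, fewer cells with a transcript and less transcript per cell cannot be told apart.

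With FoxO3 depleted, the known FoxO-activated genes were not lower as a body. Of the 29 analysed, 4 were at least 1.5-fold lower than in the control, namely YPEL3, SESN3, SESN1 and RBL2, and 4 were at least 1.5-fold higher, namely GADD45A, GADD45B, CDKN1B and GABARAPL1. The other 21 lay within 1.5-fold, among them the death genes BCL2L11 and TNFSF10 and the antioxidant enzyme gene SOD2. The call was made by size alone, on the log2 ratio of FPKM + 1, at 0.585 or more in either direction. Among all 12649 genes 16.7% were lower and 4.0% higher by the same rule. The share of 13.8% of these genes in each direction was thus near the background downward and above it upward. Upward it rested on 4 genes of a list chosen with earlier results known. After the GC adjustment described further on, 6.90% of the 29 were higher, beside 5.83% of all genes. At 2-fold 0 were higher, beside 0.672%. The median log2 ratio was -0.06, against -0.07 for all genes.

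**Figure D1:**
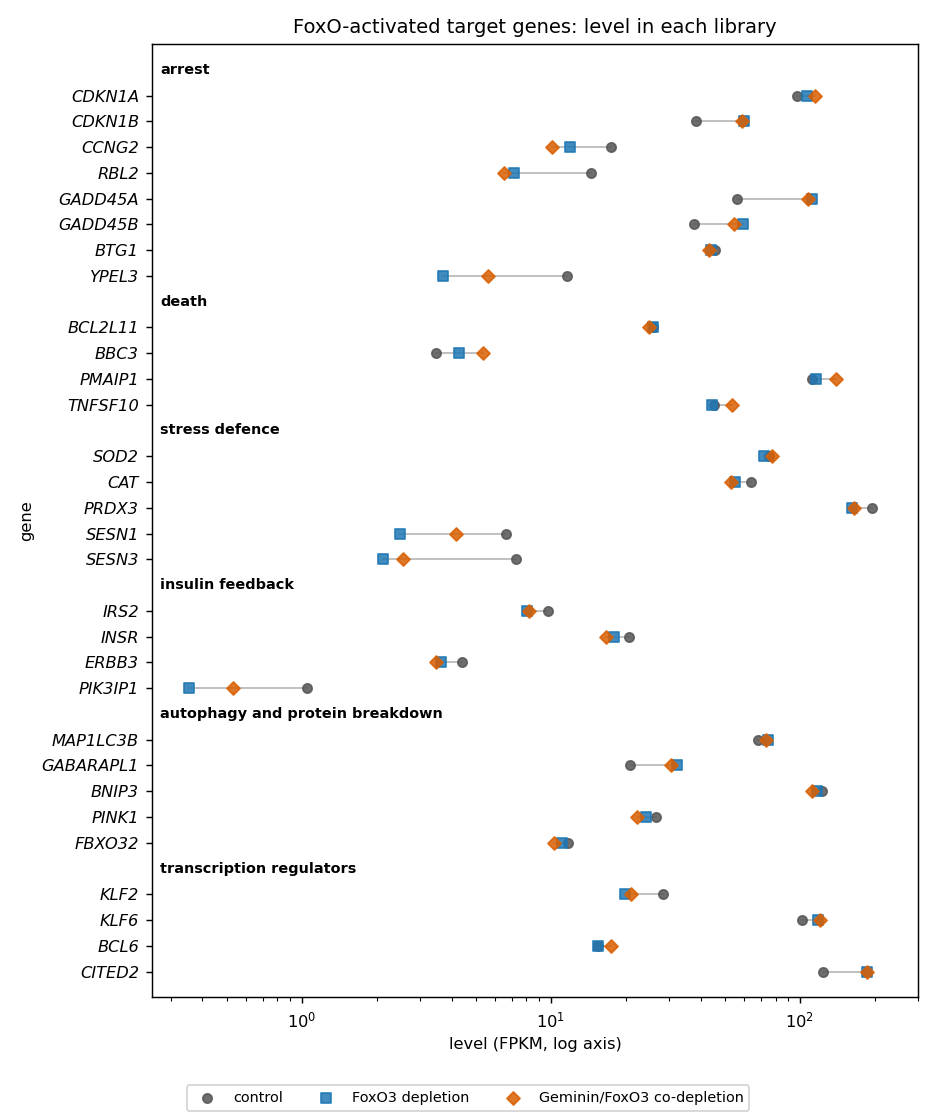
Level of each of the 30 matched genes in the control (grey circles), the FoxO3 depletion (blue squares) and the Geminin/FoxO3 co-depletion (orange diamonds), in FPKM on a log axis, grouped by role. Squares and diamonds lie close together for most genes. Among the genes further from their control value, YPEL3, SESN3, SESN1, RBL2, CCNG2, KLF2 and PIK3IP1 lie left of it. GADD45A, GADD45B, CDKN1B, GABARAPL1, CITED2 and BBC3 lie right of it.

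The levels themselves spanned a wide range. In the control, the 29 genes had a median of 28.2 FPKM, against 19.5 for all analysed genes, and ran from 3.46 for BBC3 to 195.6 for PRDX3. Their median was 32.2 FPKM with FoxO3 depleted and 30.4 with both depleted, where all genes had medians of 17.0 and 17.6. In the control, the genes lower in a depleted library, SESN1, SESN3, YPEL3, RBL2 and CCNG2, exceeded 25.3%, 27.1%, 37.0%, 42.4% and 47.0% of all genes. The higher genes GABARAPL1, GADD45B, CDKN1B and GADD45A exceeded 51.7%, 68.0%, 68.6% and 77.8%.

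The cell cycle arrest genes split in both directions. Of 8 genes, 3 were higher and 2 lower in the FoxO3 depletion, and 2 were higher and 3 lower in the co-depletion. Over all genes 4.0% and 4.02% were higher and 16.7% and 12.3% lower. Of the 8 genes 37.5% and 25% were higher and 25% and 37.5% lower, where 1 gene is 12.5%. The 2 of 8 lower in the FoxO3 depletion is near the background, and the other shares were above it on few genes. GADD45A, whose product binds CDK1 and PCNA in the stress response, was at 55.9 FPKM in the control, 111.6 with FoxO3 depleted and 107.6 with both depleted. Values without names below keep this order. Both depleted libraries held close to the same level, and the FPKM ratios to control were 2.0 (1.82 to 2.19) and 1.92 (1.76 to 2.11). Its paralog GADD45B was at 37.6, 59.1 and 54.4 FPKM, with ratios of 1.57 (1.39 to 1.78) and 1.45 (1.28 to 1.64), so it passed 1.5-fold in the FoxO3 depletion and lay short of it in the co-depletion. CDKN1B, which encodes the CDK inhibitor p27 and is among the best known FoxO targets, was at 38.3, 59.7 and 58.6 FPKM. It was higher in both depleted libraries, by 1.56 (1.40 to 1.73) and 1.53 (1.38 to 1.70). Its log2 ratio of 0.60 in the co-depletion was 0.58 after adjustment for the GC content of the longest transcript, just under the threshold, and the call was also lost there after rescaling to TPM.

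CDKN1A, which encodes the CDK inhibitor p21, was at 97.4, 107.0 and 115.3 FPKM. The control was lowest, by ratios of 1.10 (1.02 to 1.18) and 1.18 (1.10 to 1.27), both under 1.5-fold. BTG1, an antiproliferative gene whose promoter holds the forkhead core shown above, was at 45.6, 44.1 and 43.4 FPKM, and the intervals of both its ratios to control included 1.

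On the lower side, RBL2, which encodes the pocket protein p130 that represses E2F targets in quiescence, was at 14.6, 7.16 and 6.49 FPKM. Both depleted libraries were below the control, with ratios of 0.491 (0.404 to 0.595) and 0.446 (0.368 to 0.538). CCNG2, which encodes cyclin G2, a cyclin associated with arrest, was at 17.5, 12.0 and 10.1 FPKM. Its ratio was 0.683 (0.541 to 0.858) in the FoxO3 depletion, where it lay within 1.5-fold, and 0.578 (0.457 to 0.728) in the co-depletion, where it was lower. YPEL3, a gene linked to growth arrest and senescence, was at 11.6, 3.69 and 5.62 FPKM, on 161, 38 and 66 recovered reads. Its ratios to control were 0.318 (0.217 to 0.456) and 0.485 (0.358 to 0.649), and its log2 ratio in the FoxO3 depletion was -1.43. RBL2 shares exon bases with AKTIP on the other strand, which was at 8.02, 6.78 and 8.10 FPKM, and as the strand setting of the counting is not stated, RBL2 is uncertain to that extent.

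Among the death genes, 0 of 4 passed 1.5-fold on the FPKM + 1 scale in any comparison. Of all genes, 16.7% were lower and 4.0% higher in the FoxO3 depletion, and 12.3% and 4.02% in the co-depletion. Between the depleted libraries 0.617% were lower and 1.35% higher. A count of 0 of 4 cannot be told apart from such shares. BCL2L11, which encodes BIM, the BH3-only protein through which FOXO3 is known to trigger apoptosis, was at 25.7, 25.7 and 24.8 FPKM. These levels gave ratios to control of 1.0 (0.852 to 1.18) and 0.967 (0.826 to 1.13). Its promoter is among those shown above with a forkhead core. BCL2L11 shares exon bases with the opposite-strand RNA MIR4435-2HG, which was at 94.1, 117.3 and 110.7 FPKM, so its level is uncertain. BBC3, which encodes PUMA, was at 3.46, 4.30 and 5.37 FPKM, with ratios to control of 1.24 (0.888 to 1.74) and 1.55 (1.14 to 2.11). The second is past 1.5-fold as an FPKM ratio, but it is a log2 ratio of 0.51 on the FPKM + 1 scale, short of the threshold. Its call thus depends on the 1 FPKM added. PMAIP1, which encodes NOXA, was at 112.5, 116.8 and 139.9 FPKM, and the death ligand gene TNFSF10, which encodes TRAIL, was at 45.1, 44.6 and 53.5. For both, the co-depletion was the highest library, at ratios to control of 1.24 (1.17 to 1.32) and 1.19 (1.07 to 1.32). After adjustment for the GC content of the longest transcript PMAIP1 passed the threshold, with log2 ratios of 0.74 with FoxO3 depleted and 0.86 with both depleted.

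Among the stress defence genes the 2 sestrins were lower in the FoxO3 depletion. Of 5 analysed, 2 were lower and 0 higher there, and 1 was lower and 0 higher in the co-depletion, where 16.7% and 12.3% of all genes were lower. The median log2 ratios were -0.26 and -0.27, against -0.07 and -0.06 for all genes. After the GC adjustment described further on these medians were -0.13 and -0.15, and by the longest transcript -0.16 and -0.18, against 0 for all genes. SESN3, a stress-induced inhibitor of mTORC1 signalling, was at 7.26, 2.12 and 2.55 FPKM, on 263, 57 and 78 reads. Both depleted libraries lay far under the control, at ratios of 0.292 (0.215 to 0.390) and 0.351 (0.269 to 0.453). SESN1, its paralog and also a p53 target, was at 6.60, 2.48 and 4.15 FPKM, on 158, 44 and 84 reads. The co-depleted library lay between the others, with ratios to control of 0.375 (0.262 to 0.527) in the FoxO3 depletion and 0.629 (0.477 to 0.824) in the co-depletion. The second is past 1.5-fold as an FPKM ratio, but it is a log2 ratio of -0.56 on the FPKM + 1 scale, short of the threshold. Its call there thus depends on the 1 FPKM added.

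The genes of peroxide and superoxide enzymes lay within 1.5-fold of the control. SOD2, the mitochondrial superoxide dismutase and a classical FOXO3 target, was at 75.2, 71.8 and 77.7 FPKM, and the intervals of its ratios to control included 1. CAT, which encodes catalase, was at 64.0, 54.8 and 52.8 FPKM, with ratios of 0.857 (0.771 to 0.951) and 0.825 (0.745 to 0.914). PRDX3, a mitochondrial peroxidase, was at 195.6, 162.9 and 166.0 FPKM, with ratios of 0.833 (0.793 to 0.875) and 0.849 (0.810 to 0.890). CAT and PRDX3 were thus lower in both depleted libraries beyond counting error but by less than 1.5-fold. The direction of PRDX3 was not kept after GC adjustment, described further on, where its log2 ratios of -0.26 and -0.23 became 0.18 and 0.16. SESN3 and SOD2 share exon bases with opposite-strand genes, AP000787.1 at 1.16, 0.74 and 0.65 FPKM and WTAP at 34.9, 27.3 and 29.8 FPKM, and are uncertain to that extent.

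The insulin feedback genes lay slightly under the control, and 0 of 3 analysed passed 1.5-fold. With only 3 genes, that count cannot be told apart from the 16.7% and 12.3% of all genes lower in the FoxO3 depletion and the co-depletion. IRS2, the insulin receptor substrate whose promoter holds the match to the insulin response element shown above, was at 9.72, 8.05 and 8.21 FPKM. INSR, the insulin receptor, was at 20.7, 18.1 and 16.7 FPKM, and ERBB3, the neuregulin receptor, at 4.40, 3.63 and 3.47. The control was the highest library for all 3. The ratios to control in the FoxO3 depletion were 0.828 (0.691 to 0.989), 0.873 (0.781 to 0.976) and 0.824 (0.597 to 1.13). PIK3IP1, an inhibitor of PI3K with a forkhead core just after its start, was at 1.05, 0.35 and 0.53 FPKM, on 28, 7 and 12 reads. Its ratio of 0.337 in the FoxO3 depletion had an interval from 0.124 to 0.790, and that of 0.507 in the co-depletion one from 0.235 to 1.03.

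Autophagy and protein breakdown genes were near the control apart from GABARAPL1. This ATG8-family gene, whose product is lipidated on autophagosomes, was at 20.8, 32.2 and 30.4 FPKM. Its ratios were 1.54 (1.33 to 1.79) in the FoxO3 depletion, past the threshold, and 1.46 (1.26 to 1.69) in the co-depletion, short of it. MAP1LC3B, which encodes the autophagosome marker LC3B, was at 67.9, 74.4 and 73.3 FPKM. The mitophagy genes BNIP3 and PINK1 were at 123.5, 117.6 and 112.3 FPKM and at 26.5, 24.2 and 22.2 FPKM. FBXO32, which encodes the ubiquitin ligase atrogin-1, the emblem of FoxO action in wasting muscle, was at 11.8, 11.1 and 10.3 FPKM. BNIP3, PINK1 and FBXO32 were each lowest in the co-depletion, at ratios to control of 0.909 (0.856 to 0.966), 0.839 (0.763 to 0.923) and 0.876 (0.740 to 1.04). The near-identical copies MAP1LC3B2 and GABARAPL3 were listed at 0 in all 3 libraries, and MAP1LC3B shares exon bases with the opposite-strand FBXO31, at 15.6, 18.8 and 17.4 FPKM.

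The transcription regulators lay on either side of the control and 0 of 4 passed 1.5-fold. Of all genes, 16.7% and 12.3% were lower in the FoxO3 depletion and the co-depletion, and fewer were higher. A count of 0 of 4 cannot be told apart from such shares. CITED2, a coactivator-binding protein that restrains HIF1A, was at 124.5, 186.5 and 185.7 FPKM. Its log2 ratios of 0.58 and 0.57 were just under the threshold and passed it after rescaling by the median ratio, at 0.65 and 0.63. Its FPKM ratios were 1.5 (1.43 to 1.57) and 1.49 (1.42 to 1.56). KLF2, a Krüppel-like factor of quiescent cells, was at 28.2, 19.9 and 21.0 FPKM, with ratios of 0.706 (0.608 to 0.818) and 0.744 (0.647 to 0.855). KLF6, a growth-restraining relative, was at 101.9, 118.5 and 120.5 FPKM, so the 2 Krüppel-like genes differed from control in opposite directions. BCL6, a transcriptional repressor, was at 15.5, 15.5 and 17.5 FPKM, and the intervals of its ratios to control included 1.

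**Figure D2:**
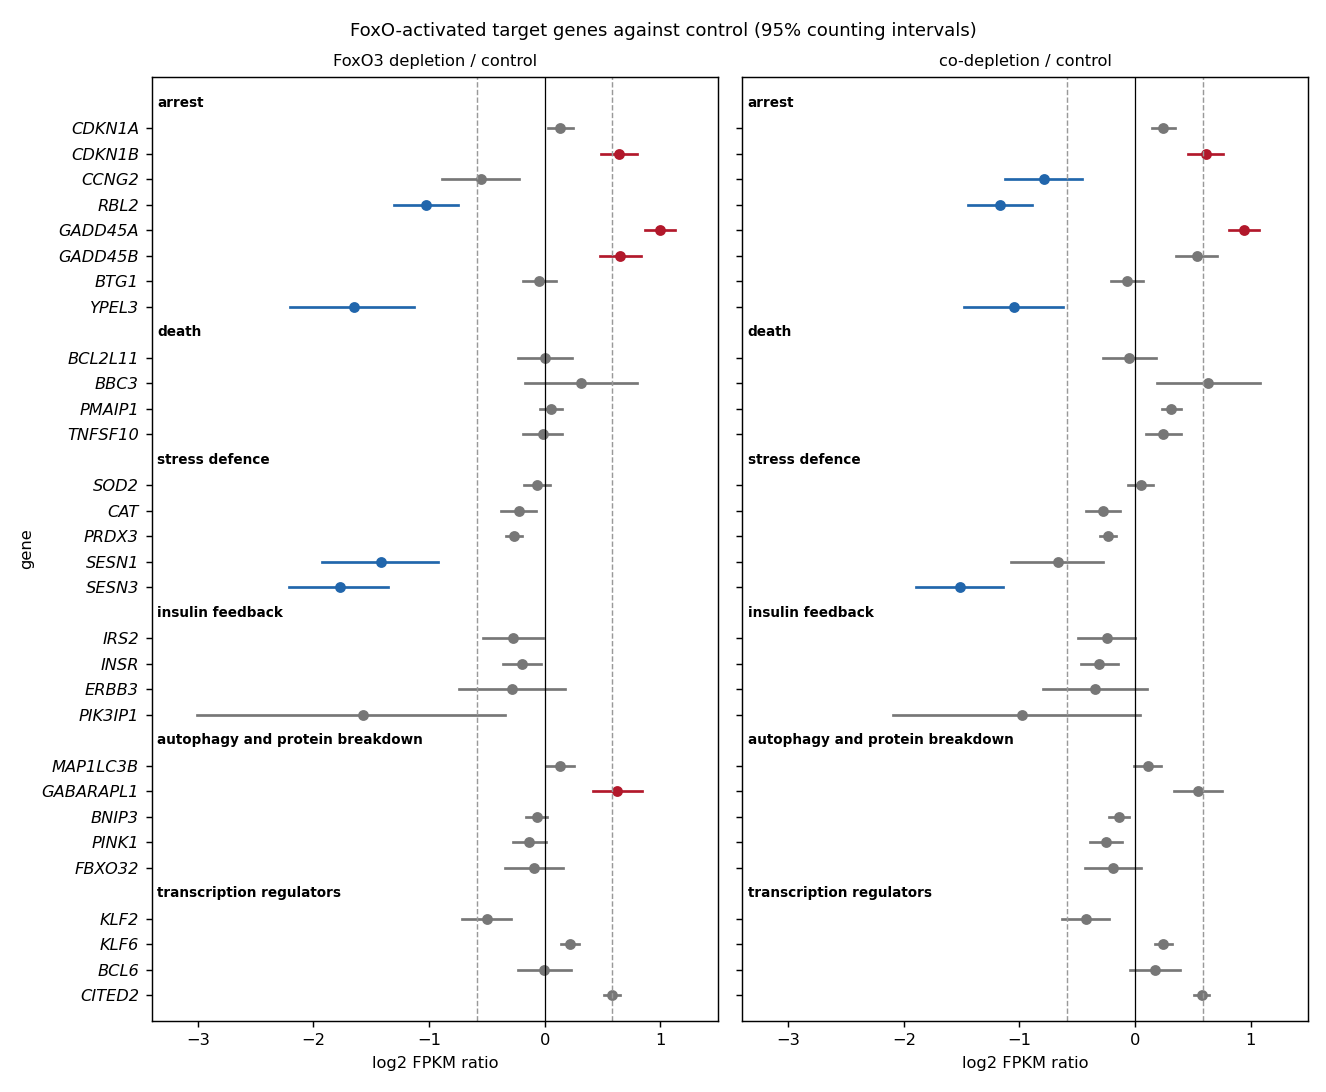
FPKM ratio to the control of each of the 30 matched genes on a log2 axis, in the FoxO3 depletion (left) and the co-depletion (right), with 95% counting intervals as bars. Dashed lines mark 1.5-fold, red and blue points are genes called higher and lower on the FPKM + 1 scale, and RBL2, YPEL3 and SESN3 are blue while CDKN1B and GADD45A are red on both sides.

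Against the control, the co-depletion had 2 genes higher (CDKN1B and GADD45A) and 4 lower (CCNG2, RBL2, YPEL3 and SESN3) of the 29, where 4.02% of all genes were higher and 12.3% lower. The median log2 ratio was -0.07, against -0.06 for all genes. Both comparisons use the same control library, so their likeness is not independent evidence. CDKN1B and GADD45A were called higher in both, as were 340 genes in all (2.69%), and RBL2, YPEL3 and SESN3 lower in both, as were 1332 genes in all (10.5%). At 2-fold, 0 of the 29 were higher in either comparison, with 0.672% and 0.625% of all genes higher. Downward, 3 passed 2-fold in the FoxO3 depletion (YPEL3, SESN1 and SESN3) and 2 in the co-depletion (RBL2 and SESN3), with 5.23% and 2.25% of all genes.

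Smaller differences beyond counting error were common, as they were for all genes. In the FoxO3 depletion the interval of the ratio excluded 1 for 8 of the 29 genes upward and 10 downward, with 24.3% and 34.7% of all genes. In the co-depletion it did so for 10 upward and 11 downward, with 24.1% and 32.6% of all genes. Counting error is the smallest error these libraries can have, and the spread between cultures was not measured.

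The comparison of the depleted libraries with each other asks how the same genes stood when Geminin was depleted along with FoxO3. By size, 0 of the 29 genes were higher and 0 lower, with 1.35% and 0.617% of all genes, and the median log2 ratio was -0.02 against 0.03 for all genes. SESN1 was nearest to the threshold, at 4.15 FPKM in the co-depletion against 2.48, a log2 ratio of 0.57 and an FPKM ratio of 1.67 (1.15 to 2.47). YPEL3 followed at 5.62 against 3.69, with a log2 ratio of 0.50 and an FPKM ratio of 1.52 (1.01 to 2.33). With a pseudocount of 0.1 in place of 1 both passed 1.5-fold, and with 0.5 SESN1 did.

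The interval excluded 1 for 5 genes upward and 0 downward, with 13.6% and 8.82% of all genes. Besides SESN1 and YPEL3 these were PMAIP1 at 1.2 (1.13 to 1.28), or a log2 ratio of 0.08 with GC taken from the longest transcript, TNFSF10 at 1.2 (1.07 to 1.35) and CDKN1A at 1.08 (1.0 to 1.16). CCNG2 had the lowest log2 ratio, at -0.22, with an FPKM ratio of 0.847 (0.647 to 1.11). All 5 autophagy and protein breakdown genes were slightly lower in the co-depletion than in the FoxO3 depletion, with log2 ratios from -0.12 to -0.02 and intervals that included 1. The death genes had the highest median of the groups, 0.26, with BCL2L11 apart at -0.05.

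**Figure D3:**
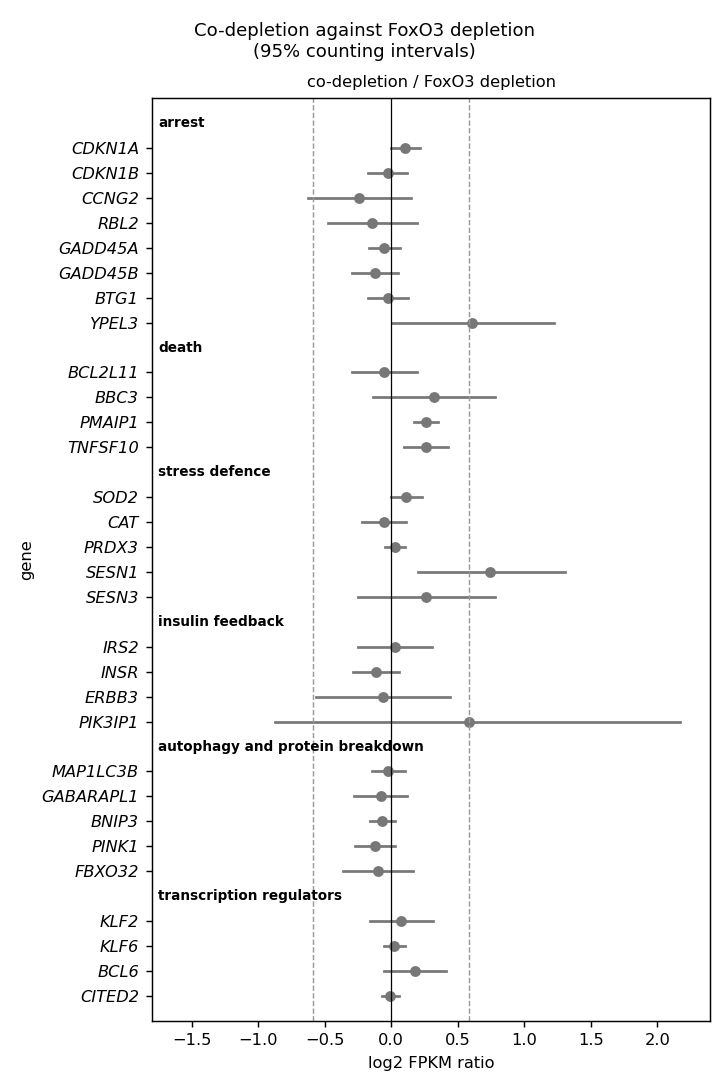
FPKM ratio of the co-depletion to the FoxO3 depletion for each of the 30 matched genes on a log2 axis, with 95% counting intervals as bars and dashed lines at 1.5-fold. The points lie close to 0, with SESN1 and YPEL3 furthest to the right among the 29 analysed genes, and PIK3IP1 has the widest interval.

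Across all genes, ratios to control were lowest for transcripts poor in GC. In the bin of genes poorest in GC, with a median GC content of 36.5%, the median log2 ratio was -0.77 with FoxO3 depleted and -0.55 with both depleted. The median over the 29 genes was 51.8% GC, and over all analysed genes 49.7%. The 4 lower in the FoxO3 depletion had a median of 43.6% and the 4 higher 55.5%. RBL2 and SESN1, at 41.0% and 40.6%, lay among GC-poor genes, SESN3 at 46.3% nearer the middle and YPEL3 at 62.8% among GC-rich genes. What part the GC content has in any ratio was not tested.

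After the median ratio of genes of like GC content was subtracted, 2 genes were higher and 3 lower in the FoxO3 depletion, with 5.83% and 9.37% of all genes. In the co-depletion 2 were higher and 3 lower, with 4.62% and 6.21%. YPEL3 was hardly altered, at log2 ratios of -1.49 and -1.03, and SESN3 stood at -1.34 and -1.14. GADD45A and CDKN1B kept their calls in both, at 0.93 and 0.84, and at 0.67 and 0.70. RBL2 went from -0.93 to -0.44 in the FoxO3 depletion, losing its call, and from -1.06 to -0.67 in the co-depletion, keeping it. SESN1 went from -1.13 to -0.64 in the FoxO3 depletion, keeping its call, and from -0.56 to -0.18 in the co-depletion. GADD45B at 0.58 and GABARAPL1 at 0.51 were short of the threshold there, and CCNG2 at -0.44 was in the co-depletion.

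The result depends in part on which transcript gives the GC content. With the longest transcript in place of the mean, chosen after seeing the data, SESN3 has a GC content of 37.1% and its log2 ratios were -0.71 and -0.67, still past the threshold. RBL2 stood at -0.73 and -0.84, YPEL3 at -1.47 and -1.04, and SESN1 at -0.92 in the FoxO3 depletion. The counts were then 3 higher and 4 lower in the FoxO3 depletion, with 5.94% and 8.74% of all genes, and 2 higher and 3 lower in the co-depletion, with 4.96% and 5.57%. YPEL3 and SESN3 were lower and GADD45A higher in both comparisons under every GC setting tried.

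**Figure D4:**
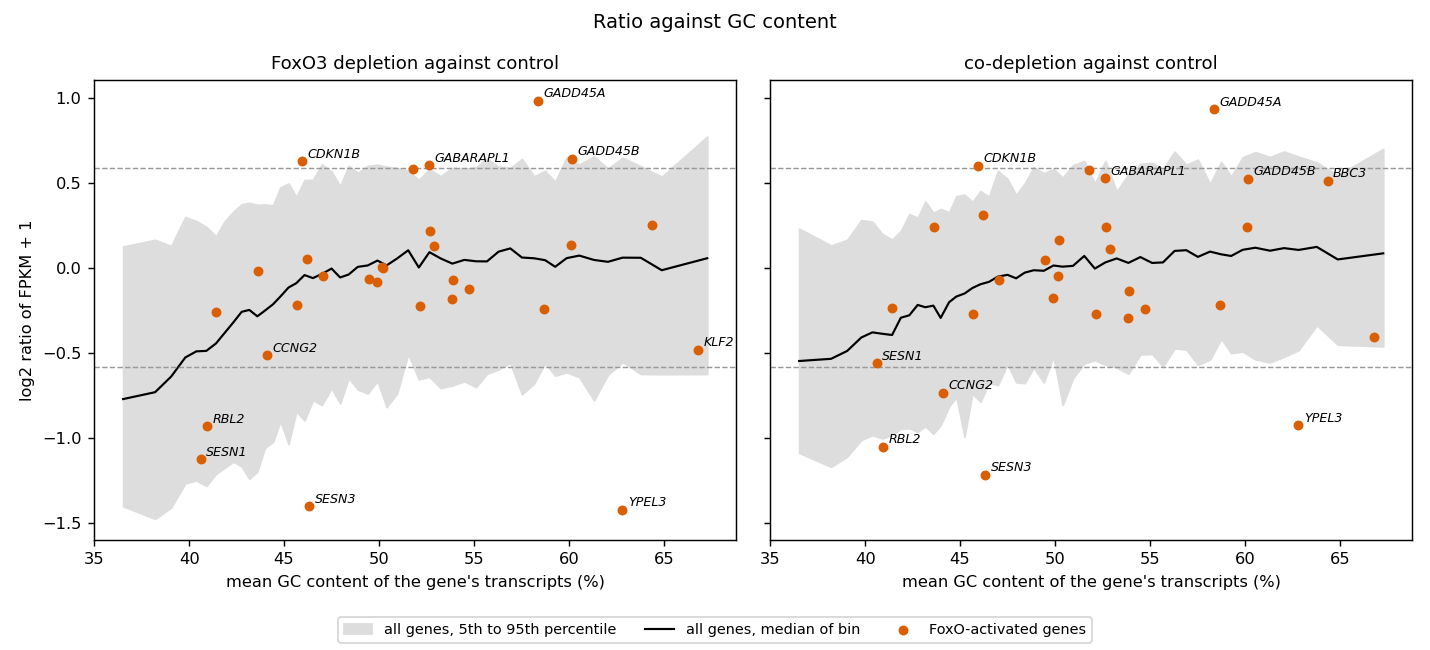
Log2 ratio of FPKM + 1 to the control against the mean GC content of each gene's transcripts, in the FoxO3 depletion (left) and the co-depletion (right). Orange points are the 29 FoxO-activated genes. The line and grey band are the median and the 5th to 95th percentile of all genes in bins of GC content. YPEL3 and SESN3 lie under the band and GADD45A and CDKN1B above it in both panels.

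The other genes of the pathway were taken from a list of 37 genes that runs from receptors and PI3K to the FOXO family, its export factor and its 14-3-3 partners. Of 36 analysed, 1 was higher and 5 lower in the FoxO3 depletion, and 1 was higher and 7 lower in the co-depletion, with median log2 ratios of 0.06 and -0.04. These are 2.78% higher and 13.9% lower, then 2.78% and 19.4%, beside 4.0% and 16.7%, then 4.02% and 12.3%, of all genes, and the lower genes include the targeted FOXO3. Besides FOXO3, at ratios of 0.228 (0.193 to 0.268) and 0.241 (0.206 to 0.280), the paralog FOXO4 was lower, at 8.11, 2.52 and 3.62 FPKM. The ratios of FOXO4 to control were 0.311 (0.206 to 0.457) and 0.447 (0.320 to 0.615), and its GC-adjusted log2 ratios were -1.43 and -1.07. FOXO1, the other widely expressed paralog, was at 3.59, 2.86 and 3.25 FPKM, with intervals that included 1. FOXO6, named after its values were seen, differed the other way, at 1.78, 2.98 and 2.72 FPKM. Its ratios to control were 1.67 (1.18 to 2.38) and 1.53 (1.08 to 2.16). On the FPKM + 1 scale its log2 ratios of 0.52 and 0.42 were short of the threshold.

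Upstream, PIK3CA, which encodes the catalytic PI3K subunit p110α, was at 19.9, 7.36 and 9.44 FPKM, and RICTOR, the defining subunit of the mTORC2 complex that phosphorylates AKT and SGK, at 25.03, 8.87 and 10.6. Their ratios to control were 0.370 (0.316 to 0.431) and 0.474 (0.414 to 0.542) for PIK3CA, and 0.354 (0.312 to 0.402) and 0.423 (0.378 to 0.474) for RICTOR. Both are poor in GC, at 40.4% and 38.2%, and their GC-adjusted log2 ratios were -0.83 and -0.62, and -0.67 and -0.63. By the longest transcript PIK3CA lay within 1.5-fold in the co-depletion. RICTOR shares exon bases with the opposite-strand OSMR, at 78.6, 100.7 and 86.9 FPKM, and PIK3CA with KCNMB3, at 1.34, 0.36 and 0.70 FPKM, so both are uncertain to that extent.

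XPO1, the exportin that carries FoxO proteins out of the nucleus, was at 243.2, 133.6 and 151.2 FPKM. GC adjustment took its log2 ratios from -0.86 and -0.68 to -0.13 and -0.15. The 14-3-3 gene YWHAQ was at 573.9, 436.0 and 319.4 FPKM and was lower in the co-depletion alone, at a ratio of 0.557 (0.538 to 0.576). The remaining calls are named because their counts were small, and were chosen after their values were seen. SGK1, the kinase that phosphorylates FOXO3 beside AKT, was the 1 higher gene, at 20.1, 35.4 and 30.8 FPKM, with ratios of 1.76 (1.53 to 2.02) and 1.53 (1.33 to 1.76). SKP2, the ubiquitin ligase subunit that targets p27 and FOXO1, was at 34.3, 30.6 and 19.4 FPKM and was the 1 gene of the list that differed by 1.5-fold between the depleted libraries, at a ratio of 0.633 (0.549 to 0.728). That is 2.78% of the list, where 0.617% of all genes were lower.

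**Figure D5:**
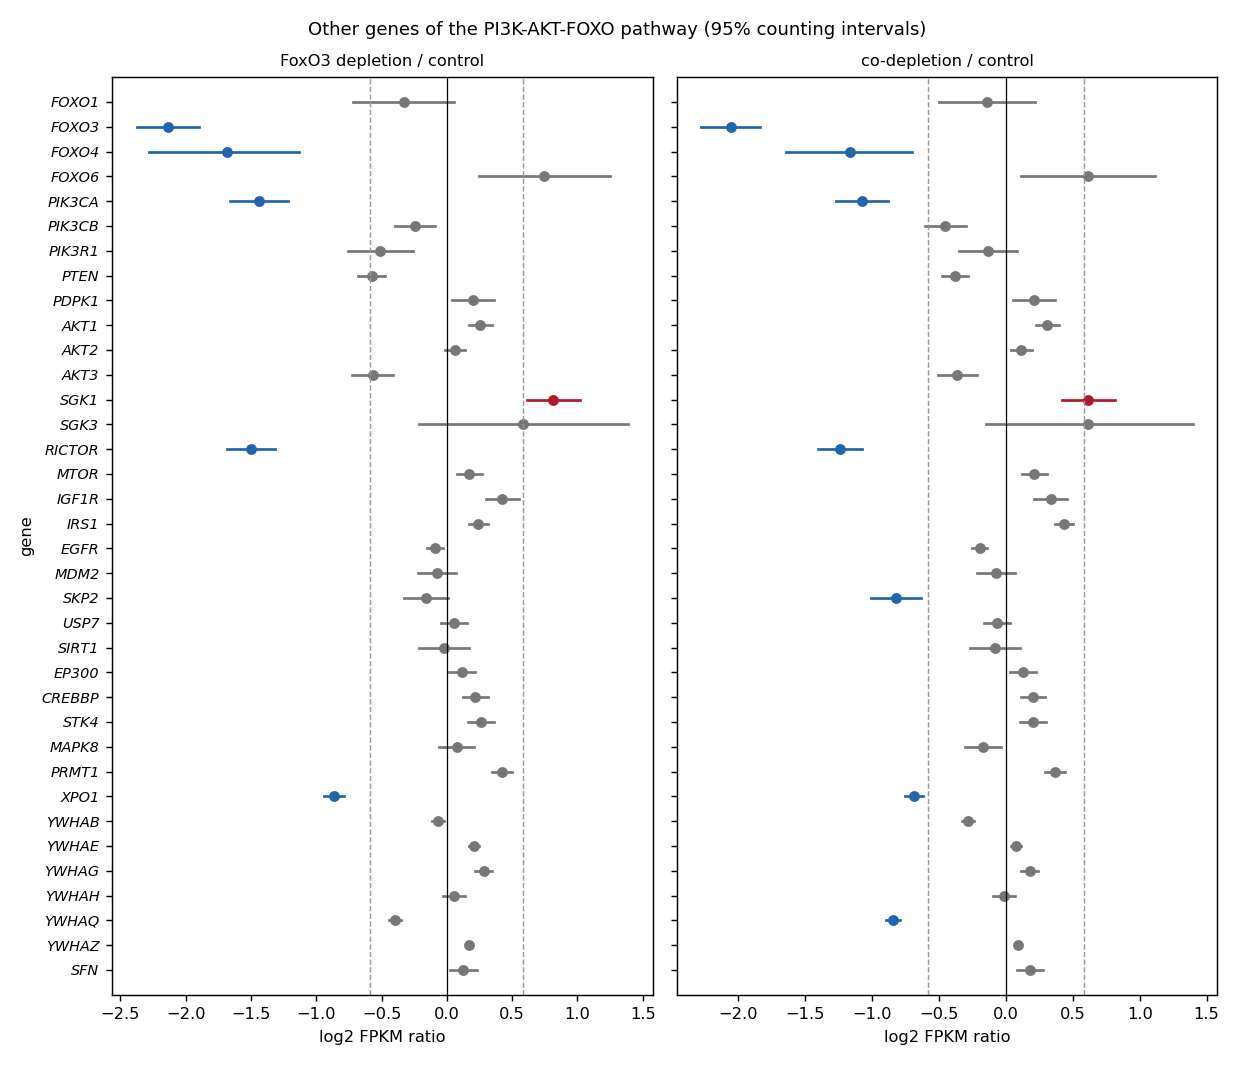
FPKM ratio to the control of the 36 analysed genes of the PI3K-AKT-FOXO pathway on a log2 axis, in the FoxO3 depletion (left) and the co-depletion (right), with 95% counting intervals as bars (none was computed for YWHAZ) and dashed lines at 1.5-fold. Blue and red points are genes called lower and higher, with FOXO3, FOXO4, PIK3CA, RICTOR and XPO1 blue and SGK1 red on both sides, and SKP2 and YWHAQ blue on the right.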

How the data were processed

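The deposited files hold FPKM computed by the authors, 1 value per Ensembl gene and library. TopHat2 2.0.9 is named in the submitters' processing notes. No source used here gives the counter, strand setting, genome build or annotation, so no coordinates are taken from the files. The promoter stretches carry those of the RefSeq table. Names, lengths and GC content came from GENCODE 29, whose ID for TXNIP had no match. The FPKM of 20522 of the 20591 genes detected in 2 or more libraries resolved into whole reads, as did 28 of 2000 random rows. For some genes the true reads may be a multiple of these. Depth was 14507410 reads (control), 10760613 (FoxO3 depletion) and 12267332 (co-depletion). Ratios are log2 of FPKM + 1, for named genes with a mean of at least 1 FPKM. GC adjustment subtracted the median ratio in 50 bins. The members, roles and lists were chosen with earlier results of these data known. All 31 members are named. Of the pathway, FOXO1, FOXO3, FOXO4 and the 4 others with the largest ratios are named by rule. Scripts used Python 3.11.15, scipy 1.17.1 and pandas 2.3.3 and were tested on simulated data. Alternatives were other pseudocounts, minima, scalings and size rules, and GC adjustment. Protein sequences were not used here.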

Additional observations from a re-analysis of the deposited data

How the results depend on the processing

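No paired analysis was possible because each group holds 1 library, and for the same reason no library could be left out in turn. No gene called at 1.5-fold changed direction in that comparison under the 11 alternative settings. Genes within 1.5-fold could, such as PRDX3, TNFSF10, BTG1 and SOD2. Depth limits SESN1, SESN3, YPEL3, BBC3, ERBB3 and PIK3IP1 most, since they rest on the fewest reads. Among the FoxO-activated genes in the FoxO3 depletion, 2 were lower with a mean of at least 5 FPKM, which leaves 25 genes and drops both sestrins. In the FoxO3 depletion 0 of the 29 were higher at 2-fold and 2 with GC adjustment, beside 0.672% and 5.83% of all genes. In the co-depletion against control 1 was higher after rescaling to TPM. At 2-fold 0 were higher and 2 lower there, beside 0.625% and 2.25% of all genes. Between the depleted libraries 2 were higher with a pseudocount of 0.1 and 1 with 0.5. GC adjustment moved 5, 6 and 1 of the 29 ratios beyond their counting intervals in the 3 comparisons, and rescaling by the median ratio moved 2, 0 and 0. Of the 36 pathway genes in the FoxO3 depletion, 2 were higher with a pseudocount of 0.1 or 0.5 or after rescaling by the median ratio. At 2-fold 0 were higher, with GC adjustment 4 (11.1%, median log2 ratio 0.19) and with GC by the longest transcript 3 (8.33%). Of all genes 0.672%, 5.83% and 5.94% were higher in that order. In the co-depletion 0 pathway genes were higher after rescaling to TPM, 0 were higher and 3 lower at 2-fold, and 3 were higher with GC adjustment (median 0.16). Of all genes 0.625% were higher and 2.25% lower at 2-fold, and 4.62% were higher with GC adjustment. With GC by the longest transcript 2 pathway genes were higher and 4 lower (median 0.082), beside 4.96% and 5.57% of all genes. Between the depleted libraries 0 pathway genes were lower at 2-fold, beside 0.0632% of all genes. The shares of all genes under the other pseudocounts, minima and scalings are not given here, so those counts cannot be read against a background. The cause of these differences was not tested.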
